A study of Mus musculus with 5 samples.

Results

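The replication-dependent histone genes are described here in mouse haematopoietic stem cells labelled as lacking Lrp5 and Lrp6, set against wild type cells. A gene was taken as a member when its symbol in the deposited tables began with Hist1h, Hist2h, Hist3h or Hist4h, which gave 70 of 33894 named genes. They code for 6 linker histones (H1), 20 H2A, 19 H2B, 12 H3 and 13 H4 proteins or pseudogenes. By GENCODE M21, 56 lie in the Hist1 cluster on chromosome 13, 10 in Hist2 on chromosome 3, 3 in Hist3 on chromosome 11 and 1 in Hist4 on chromosome 6.

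Core histones H2A, H2B, H3 and H4 form the protein spool around which DNA is wound, and H1 binds the linker DNA between spools. Dividing cells switch on these clustered genes in S phase, when new DNA has to be packed. Their mRNAs usually end in a conserved stem-loop in place of a poly(A) tail, and the stem-loop binding protein Slbp guides their processing, translation and decay. Some members also make polyadenylated mRNA, mostly in cells that are leaving or have left the cell cycle.

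The 3 libraries labelled dKO came from mice that carried Vav-cre with floxed copies of both genes (Lrp5 fl/fl and Lrp6 fl/fl), and the 2 WT libraries came from mice labelled only WT. All mice were 8 weeks old, and all cells were bone marrow cells that were lineage-negative, Sca1-positive and c-Kit-high and lacked CD34 and Flt3, sorted into Trizol. Each library was made by Smart-seq2, an amplified full-length method, from the RNA of 6K cells. Smart-seq2 in its standard form primes on poly(A) and does not mark strand, so stem-loop ends are poorly primed and antisense reads cannot be separated. Lrp5 and Lrp6 are co-receptors for Wnt ligands. The Vav promoter drives Cre across the blood-forming system, not in stem cells alone. Cre is named for the dKO group only, so the transgene and the loss of both genes cannot be told apart. Nothing in the labels ties a library to its own mouse, so the p-values speak only of spread among these libraries, and that spread may be technical.

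Library totals ran from 16028512 to 28027458 counts, with dKO replicate 2 the shallowest. That library also correlated least with the others, at 0.851 at most across genes. Whole-gene counts did not show the deletions: Lrp6 had 790, 260 and 767 counts in dKO against 660 and 232 in WT, and Lrp5 had 37, 2 and 71 counts in dKO against 7 and 32 in WT. Such counts cannot show whether a floxed exon is missing, so dKO below means the libraries labelled dKO. All 10 stem cell markers had counts in every library, and their summed level was 1845 to 2008 CPM (library-scaled counts, with TMM scaling between libraries) in dKO, against 949 to 1370 CPM in WT. The 7 granulocyte progenitor markers were present in every library, at 11093 to 15751 CPM in dKO against 6466 and 42254 CPM in WT replicates 1 and 2. The 8 erythroid and megakaryocyte markers summed to 176 to 235 CPM in dKO, against 87.5 to 99.6 CPM in WT. Mast cell and basophil markers (6 of 6 present in every library) summed to 463 to 1145 CPM in dKO against 275 to 453 CPM in WT, and dendritic cell and monocyte markers (6 of 6) to 472 to 862 CPM in dKO against 329 to 334 CPM in WT. The 6 T and NK cell markers summed to 569 to 705 CPM in dKO against 712 to 1886 CPM in WT. Nearly all of that sum was Nkg7, at 561.8, 676.8 and 671.5 CPM in dKO against 704.4 and 1881 CPM in WT. Klrb1c went the other way, at 6.60, 17.22 and 12.15 CPM in dKO against 5.28 and 5.53 CPM in WT. Cd2, Cd3d, Cd3e and Cd3g were each at 0 in at least 1 library. The 7 B cell markers overlapped, at 114 to 294 CPM in dKO and 103 to 145 CPM in WT, with Pax5 at 0 in at least 1 library. The part of these marker differences in the results was not tested. Bulk libraries cannot separate fewer cells of a type from less RNA per cell.

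The stem-loop was looked for first, because it decides how a histone mRNA ends. The histone stem-loop consensus was read on the sense strand only. It was present in the GENCODE M21 transcripts of 44 of the 70 members and in 0.223% of 141767 mouse transcripts. Some members without a match have M21 transcripts that stop with the coding sequence, such as Hist1h4k at 312 bases. What follows the coding sequence could not be searched in them. For these members, no match does not mean that the gene lacks a stem-loop or the polyadenylation hexamer described below. The search fixed the letters common to the 6 forms below at most positions, and it did not require that the stem pairs. By identifier, Hist2h2bb and Hist2h3c1 were matched to overlapping M21 genes of another name (Gm42743 and Gm20634), so the stem-loop and hexamer counted for Hist2h3c1, and the lack of both for Hist2h2bb, are those of these transcripts. The sequences below show the 6 forms found, each with the 16 matched bases in capitals and up to 5 bases on either side.
Hist1h1c: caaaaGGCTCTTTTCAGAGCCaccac
Hist3h2a: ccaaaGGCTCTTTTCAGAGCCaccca
Hist1h2bg: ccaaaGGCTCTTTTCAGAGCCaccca
Hist1h2bb: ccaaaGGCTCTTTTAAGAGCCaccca
Hist2h2ac: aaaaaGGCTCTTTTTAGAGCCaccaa
Hist1h4d: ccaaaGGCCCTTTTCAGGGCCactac
Hist1h4i: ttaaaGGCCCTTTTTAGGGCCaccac
Hist1h4j: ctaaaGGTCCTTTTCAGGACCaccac
The form of Hist1h1c was the commonest, in 26 members of classes H1, H2A, H2B and H3 and in 0 of H4. The form of Hist1h4d was in 7 members, all of them H4. The forms of Hist1h4i and Hist1h4j were in 2 H4 members each, that of Hist1h2bb in 6 members outside H4, and that of Hist2h2ac in that gene alone among the members. Annotated transcripts often ran on past the stem-loop, by 840 bases for Hist1h1c, 1643 for Hist3h2a, 330 for Hist1h4i and 155 for Hist1h2bg, but by 42 for Hist1h2ad. A polyadenylation hexamer, AATAAA or ATTAAA on the sense strand, was in the last 50 bases of 17 members (24.3%) and of 33.7% of all transcripts. Hist1h1c, Hist3h2a and Hist1h4i had both the stem-loop and the hexamer, while neither was found in the transcript of Hist1h2bc.

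RefSeq promoters (GRCm38.p6, 250 bases before to 50 after the start) were matched for 61 members. CCAAT, searched on both strands, was in all 49 promoters of H1, H2A, H2B and H3 members, in 3 of 12 H4 promoters and in 37.9% of all 27025 mouse promoters. TATAAA was in 57.4% of member promoters against 14.2% of all, and the octamer ATTTGCAT in 21.3% against 1.75%, again on both strands and with each motif counted apart from the others. The 13 octamer matches were in 7 H2A and 6 H2B promoters. Some promoters overlap, such as those of Hist1h2ae and Hist1h2bg, and a site of any motif in the shared bases was counted for both genes. The matches are thus not all separate sites. The promoters of Hist1h1c and Hist1h2ac are printed because the first belongs to the H1 gene with higher values in every dKO library, and the second faces Hist1h2bc, the H2B gene with the same pattern. Matches to the 3 motifs on either strand are in capitals. They describe the letters and do not show that a factor binds.
Hist1h1c, chr13:23738557-23738856, plus strand: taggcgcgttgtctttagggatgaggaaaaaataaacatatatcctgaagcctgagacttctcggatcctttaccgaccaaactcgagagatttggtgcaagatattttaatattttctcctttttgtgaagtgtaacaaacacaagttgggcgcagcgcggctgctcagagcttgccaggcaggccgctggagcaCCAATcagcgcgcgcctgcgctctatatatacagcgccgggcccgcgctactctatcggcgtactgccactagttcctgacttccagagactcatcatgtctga
Hist1h2ac, chr13:23683910-23684209, minus strand: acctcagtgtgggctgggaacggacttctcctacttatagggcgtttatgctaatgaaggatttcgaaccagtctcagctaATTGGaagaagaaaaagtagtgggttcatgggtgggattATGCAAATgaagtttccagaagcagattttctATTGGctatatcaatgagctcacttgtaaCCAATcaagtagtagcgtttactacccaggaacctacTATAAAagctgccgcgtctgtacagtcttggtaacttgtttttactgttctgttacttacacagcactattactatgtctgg

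Values of the histone genes lay on both sides of 0, and no member was called. Of the 70 members 56 passed the filter on counts and were tested. Of these, 0 passed edgeR's quasi-likelihood test at an adjusted p under 0.05 in either direction. Among all 13696 tested genes 0 passed as well (0% called higher and 0% lower). The tested members had a median log2 fold change of -0.04, dKO over WT, with 26 above 0 and 30 below, beside a median of 0.04 over all tested genes. Without WT replicate 2, the library rich in granulocyte transcripts, that median was 0.31, and it lay between -0.29 and 0.15 when any other library was left out. At an unadjusted p under 0.05, 2 members were higher in dKO, Hist1h1c and Hist1h2bc, and 1 was lower, Hist1h2al. That is 5.36% of the tested members, against 10.1% of all tested genes (4.94% higher and 5.19% lower). All 3 dKO libraries lay above both WT libraries for 6 tested members (10.7%, against 13.7% of all genes). They lay below both for 7 (12.5%, against 15.6% of all genes). Hist1h4j, Hist1h4k and Hist3h2bb-ps, among the 6, passed the count filter through dKO only. Hist1h2al, among the 7, passed it through WT only. The filter favoured a difference in these members, so their place in the counts lends no support to one. DESeq2 called 1 member, Hist1h2al, among 254 genes (1.18% of genes called higher, 0.672% lower).

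Histone genes varied widely between libraries of a group. Their median edgeR dispersion was 1.05, a coefficient of variation of 102%, against 0.191 and 43.7% over all tested genes. These sets were not matched for level. Among members with many counts, the dispersion was 0.074 for Hist1h2bc, 0.085 for Hist1h1c, 0.135 for Hist1h4i and 0.152 for Hist1h2bg. It was 0.508 for Hist1h4d and 3.27 for Hist1h2ad. More than 50% of the summed CPM lay in 1 library for 12.5% of tested members and 12.1% of all tested genes. For 48 of the 56 tested members the 95% interval of the log2 fold change was wider than 4 log2 units, so only large differences were detectable at this depth and spread. dKO replicate 2 had the lowest level for 25 of the 56 tested members (35.9% of all tested genes were lowest there) and 0 counts for 8, whereas dKO replicate 3 was highest for 20 and WT replicate 2 for 18. A member with 0 counts in a library could have had up to 0.111 to 0.181 CPM there, depending on the library (3 counts, counting error only).

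**Figure D1:**
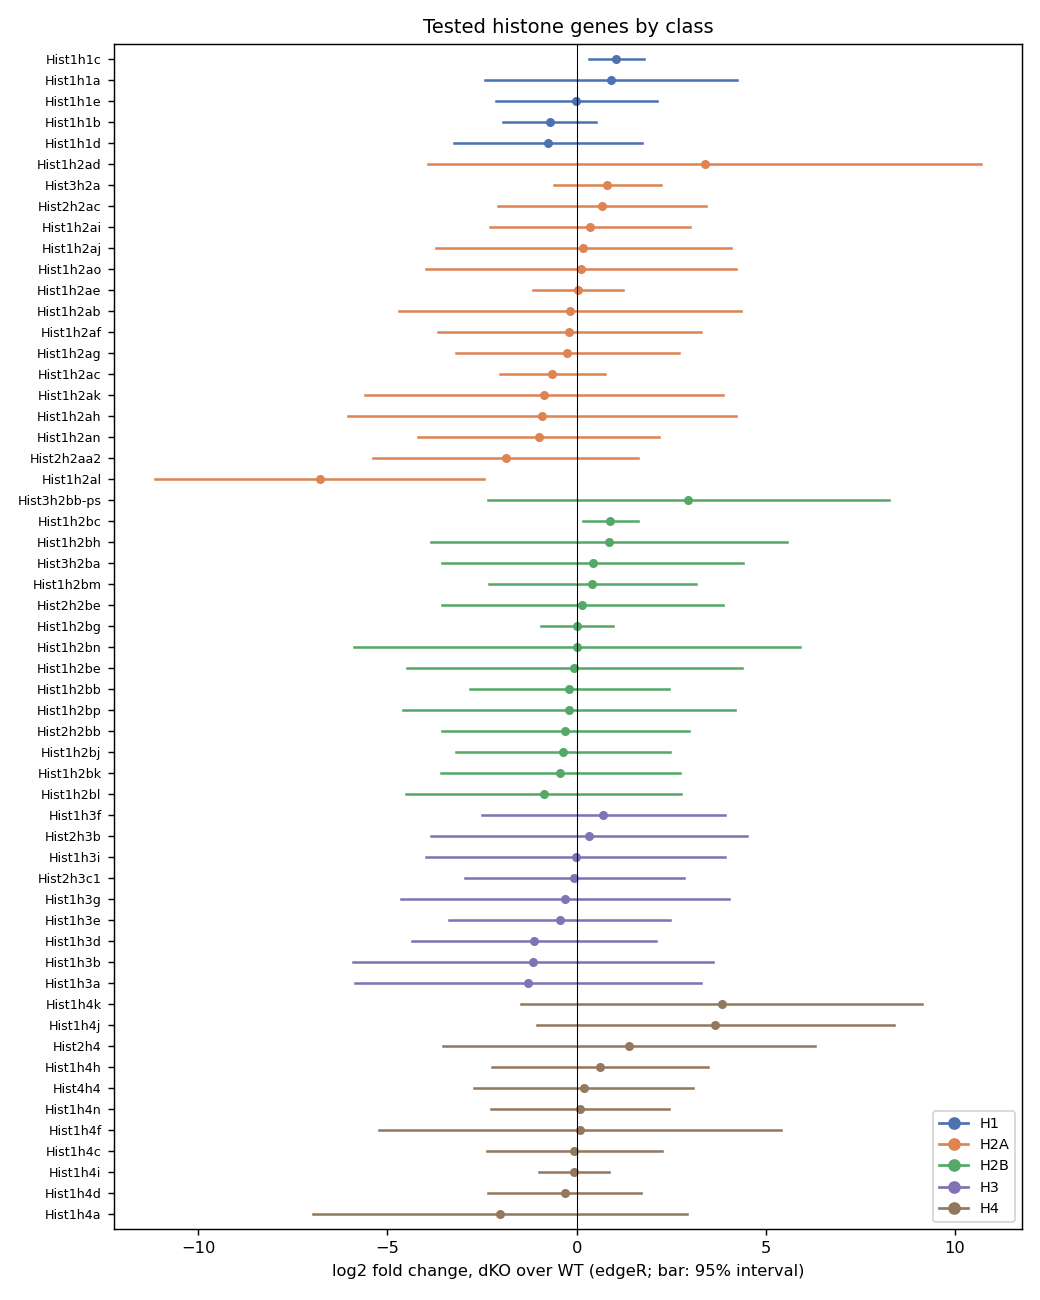
Log2 fold change (dKO over WT, edgeR) of the 56 tested histone genes, grouped by class and ordered within it; points are estimates and bars 95% intervals. Only Hist1h1c, Hist1h2bc and Hist1h2al have intervals that leave out 0.

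A few genes supplied most of the signal. In TPM, transcript levels scaled by length and library, the 7 highest members held 60.0% of the histone total averaged over the libraries. Hist1h2bc, an H2B gene, led with a mean of 170 TPM. Hist1h4i (78.8 TPM), Hist1h2ad (64.5 TPM), Hist3h2a (58.9 TPM), Hist1h2bg (52.8 TPM), Hist1h4d (46.1 TPM) and Hist1h1c (44.5 TPM) followed, while the median member had 4.04 TPM. Neighbours in this order could overlap across libraries: Hist1h4i ran from 58.1 to 95.2 TPM and Hist3h2a from 33.7 to 85.6 TPM. Hist1h2bc, at 82.3 to 248 TPM, overlapped the range of Hist1h4i in WT replicate 2 only. In total 16 members averaged at least 10 TPM and 11 averaged under 1 TPM.

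**Figure D2:**
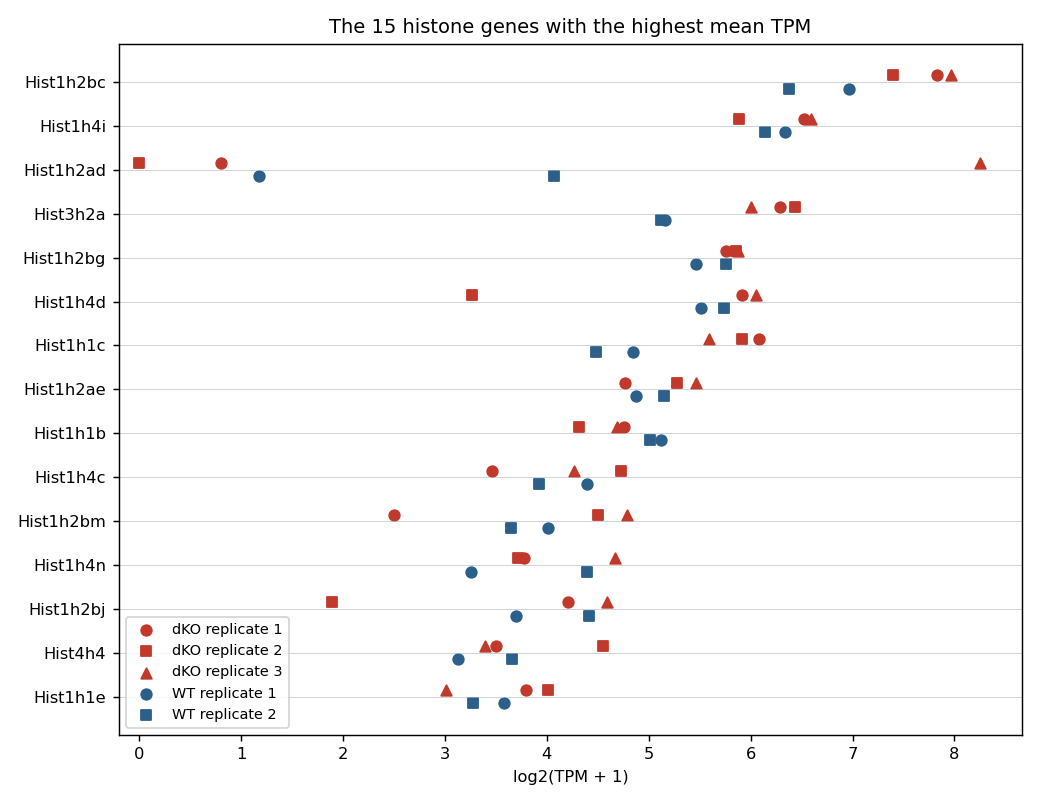
Level of the 15 histone genes with the highest mean TPM, as log2(TPM + 1), in each of the 3 dKO (red) and 2 WT (blue) libraries. The red points of Hist1h2bc, Hist3h2a and Hist1h1c all lie to the right of the blue ones, and Hist1h2ad is high in dKO replicate 3 alone, at 304 TPM.

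Among the linker histones, Hist1h1c (ENSMUSG00000036181.1), which codes for H1.2, had 54.2, 48.0 and 42.6 CPM in dKO against 24.6 and 22.2 CPM in WT. Every dKO library lay above every WT library, and the gene averaged 48.3 ± 5.76 CPM in dKO (SD, n = 3) and 23.4 ± 1.72 CPM in WT (SD, n = 2). Its log2 fold change was 1.04 (SE 0.32, 95% interval 0.31 to 1.77; edgeR adjusted p = 0.436), so it did not pass over all genes. Length-scaled values gave the same order, with 66.8, 59.3 and 47.3 TPM in dKO and 27.7 and 21.3 TPM in WT. No other M21 gene was matched to its coding sequence. Leaving out each library in turn kept the log2 fold change between 0.96 and 1.13, and its unadjusted p was over 0.05 without WT replicate 2.

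Hist1h1b, which codes for H1.5, lay on the other side, at 10.1, 7.01 and 10.5 CPM in dKO against 14.4 and 15.7 CPM in WT (log2 fold change -0.71, edgeR adjusted p = 0.727). Its groups did not overlap either, but the difference did not pass the test. Hist1h1e, which codes for H1.4, had 4.83, 5.50 and 2.93 CPM in dKO and 4.71 and 4.17 CPM in WT, a log2 fold change of -0.01. Hist1h1a and Hist1h1d overlapped between the groups, and the testis gene Hist1h1t had counts in WT replicate 2 only and was not tested. Summed over the class, H1 genes had 72.5, 68.5 and 62.5 CPM in dKO against 50.1 and 49.4 CPM in WT. Without Hist1h1c the sum was 18.4, 20.5 and 19.8 CPM in dKO against 25.5 and 27.2 CPM in WT. In CPM the order of the groups thus turned round when that gene was set aside. In TPM the groups then overlapped, at 43.9, 52.4 and 36.7 TPM in dKO and 49.7 and 48.0 TPM in WT.

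Of the H2B genes, Hist1h2bc (ENSMUSG00000018102.4) had 87.2, 64.4 and 107 CPM in dKO against 52.5 and 40.4 CPM in WT. The groups did not overlap, and the means were 86.3 ± 21.5 CPM in dKO (SD, n = 3) and 46.5 ± 8.58 CPM in WT (SD, n = 2). Its log2 fold change was 0.89 (SE 0.31, 95% interval 0.18 to 1.61; edgeR adjusted p = 0.441). Leaving out 1 library gave 0.71 to 1.09, and its unadjusted p was over 0.05 without dKO replicate 1, dKO replicate 3 or WT replicate 2. The coding sequence is over 99% identical to those of 2 other genes, at 99.5% for Hist1h2bq, so reads may be split between copies; Hist1h2bq itself had 1 count over all libraries.

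Apart from the pseudogene Hist3h2bb-ps, described below with other weakly expressed members, the other H2B genes named had smaller differences. Hist1h2bg had 18.7, 19.6 and 22.7 CPM in dKO and 16.3 and 23.9 CPM in WT, a log2 fold change of 0.02 with a 95% interval of -0.94 to 0.97. Hist1h2bm (log2 fold change 0.41) and Hist1h2bj (-0.37) overlapped widely between groups, the first at 0.995, 4.47 and 6.08 CPM in dKO against 2.62 and 3.16 CPM in WT. Hist1h2bj had 4.13, 0.48 and 6.37 CPM in dKO against 3.08 and 6.41 CPM in WT. Hist1h2bb was 2.69, 2.66 and 2.33 CPM in dKO against 2.77 and 3.08 CPM in WT, without overlap but with a log2 fold change of only -0.19. Hist2h2be, whose transcript carries a hexamer and no stem-loop match, had 328, 0 and 216 counts in dKO against 164 and 146 counts in WT. The 18 H2B genes other than Hist1h2bc summed to 48.1, 35.5 and 70.6 CPM in dKO and 40.9 and 61.4 CPM in WT, with overlapping groups.

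Among H2A genes, Hist3h2a (ENSMUSG00000078851.3) had 17.4, 11.3 and 9.38 CPM in dKO against 6.46 and 7.97 CPM in WT. The groups did not overlap, but the log2 fold change of 0.81 (SE 0.61, edgeR adjusted p = 0.725) did not pass the test. M21 places a transcript of Trim17 over it on the same strand, and Trim17 had 0 counts in all 5 libraries. Hist1h2ac, the divergent neighbour of Hist1h2bc whose promoter is printed above, had the opposite sign, at 9.18, 5.80 and 7.78 CPM in dKO against 11.4 and 12.4 CPM in WT (log2 fold change -0.64, edgeR adjusted p = 0.795). The start sites of this pair lie 250 bases apart in M21. Among all 15 such head-to-head pairs of members, 11 had both genes tested, and 8 of these had log2 fold changes of the same sign.

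Hist1h2ad stood apart through a single library. It had 5, 0 and 2747 counts in dKO against 11 and 152 counts in WT, so 93.8% of its summed CPM lay in dKO replicate 3. Its log2 fold change was 3.39 with all libraries (SE 2.98, edgeR adjusted p = 0.786) and -4.98 without dKO replicate 3. Its coding sequence exceeds 99% identity to those of 4 other genes, so these reads may not all belong to it. Hist1h2ap had 2, 2 and 4 counts in dKO against 0 and 235 counts in WT, with 96.5% of its CPM in WT replicate 2, and was not tested. Hist1h2ae, with 9.77, 14.9 and 18.2 CPM in dKO and 11.7 and 16.2 CPM in WT, showed no such jump (log2 fold change 0.03).

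Hist1h2al showed the most negative fold change of the tested members. It had 1, 1 and 0 counts in dKO against 89 and 112 counts in WT, a ratio of 0.00722 with an exact conditional interval of 0.000868 to 0.0264 that covers counting error only. Fitted across libraries the log2 fold change was -6.79 (edgeR adjusted p = 0.434; DESeq2 adjusted p = 0.0147). Its unadjusted p was over 0.05 without WT replicate 2. The gene passed the count filter through WT only, is annotated in M21 as a processed pseudogene, and shares over 99% identity with 5 other genes. Hist2h2aa2, another H2A gene with near-identical copies, had 0.41, 0.79 and 0.48 CPM in dKO against 1.60 and 2.52 CPM in WT (log2 fold change -1.88, edgeR adjusted p = 0.747). H2A sums overlapped between groups, at 49.6, 45.7 and 160 CPM in dKO and 47.2 and 81.4 CPM in WT.

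H3 genes were low throughout. The class summed to 14.3, 11.0 and 13.6 CPM in dKO against 14.5 and 18.8 CPM in WT, a ratio of means of 0.778. The groups were parted only narrowly, by 14.34 CPM in dKO replicate 1 and 14.55 CPM in WT replicate 1. In TPM they overlapped, at 35.8, 21.4 and 32.0 TPM in dKO against 30.5 and 31.9 TPM in WT. Of the 9 tested members 7 had a negative log2 fold change. Their median was -0.31, beside 0.04 for all tested genes, and 0 of the 9 had an unadjusted p under 0.05. The level of Hist1h3b was 0.44, 0 and 0.33 CPM in dKO against 0.49 and 0.68 CPM in WT (log2 fold change -1.15, edgeR adjusted p = 0.923).

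The leading H4 gene, Hist1h4i, was nearly level, with 27.2, 17.4 and 32.0 CPM in dKO and 26.7 and 26.9 CPM in WT. Its log2 fold change was -0.07 (95% interval -0.99 to 0.86), which leaves room for a change of close to 1 log2 unit either way. Hist1h4d was low in dKO replicate 2 alone: it had 337, 28 and 411 counts in dKO against 272 and 350 counts in WT. Hist1h4c had 54, 92 and 116 counts in dKO and 116 and 95 counts in WT, Hist1h4n 92, 50 and 172 in dKO and 59 and 145 in WT, and Hist4h4 49, 63 and 53 in dKO and 40 and 73 in WT. In each of these the groups overlapped. The H4 sum was 53.4, 39.6 and 68.1 CPM in dKO and 48.3 and 58.1 CPM in WT.

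Among weakly expressed members, the H4 genes Hist1h4j and Hist1h4k and an H2B pseudogene had higher values in every dKO library than in WT. Hist1h4j had 13, 36 and 52 counts in dKO against 5 and 1 counts in WT (log2 fold change 3.67, edgeR adjusted p = 0.586). Hist1h4k had 26, 28 and 26 counts in dKO against 0 and 4 counts in WT (log2 fold change 3.83, edgeR adjusted p = 0.619). Their coding sequences are 98.4% identical to each other. Hist3h2bb-ps had 27, 46 and 14 counts in dKO against 0 and 9 counts in WT (log2 fold change 2.95, edgeR adjusted p = 0.736). All 3 passed the count filter through dKO only, so the filter favoured a difference in them. Leaving out a WT library moved the log2 fold change to 2.97 or 5.07 for Hist1h4j, 2.86 or 7.87 for Hist1h4k and 1.96 or 8.12 for Hist3h2bb-ps, the higher value without WT replicate 1 for Hist1h4j and without WT replicate 2 for the others. Hist1h4a lay the other way, at 0.11, 0.60 and 0 CPM in dKO against 0.80 and 1.12 CPM in WT (log2 fold change -2.02, edgeR adjusted p = 0.834), between -3.99 without dKO replicate 2 and -1.43 without dKO replicate 3.

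Adding all members up, histone genes had 325, 265 and 482 CPM in dKO against 254 and 309 CPM in WT. The groups overlapped, and the ratio of means was 1.27 with Hist1h2ad and 1.16 without it. Hist1h1c, Hist1h2bc and Hist3h2a, added together after their values were seen, had 159, 124 and 159 CPM in dKO against 83.6 and 70.5 CPM in WT, a ratio of 1.91. They made up 48.8%, 46.7% and 33.0% of the histone total in dKO against 33.0% and 22.8% in WT. The 66 members left without these 3 and Hist1h2ad had 166, 141 and 221 CPM in dKO and 169 and 233 CPM in WT, a ratio of 0.876 with overlapping groups. Members with a hexamer in their last 50 bases summed to 134, 105 and 132 CPM in dKO against 86.9 and 94.7 CPM in WT, but Hist1h1c and Hist3h2a are among them. The median log2 fold change was 0.17 over the 14 tested members with a hexamer and -0.19 over the 42 in which none was found. Some of those 42 have transcripts annotated only to the end of the coding sequence. The difference between the medians was not tested.

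**Figure D3:**
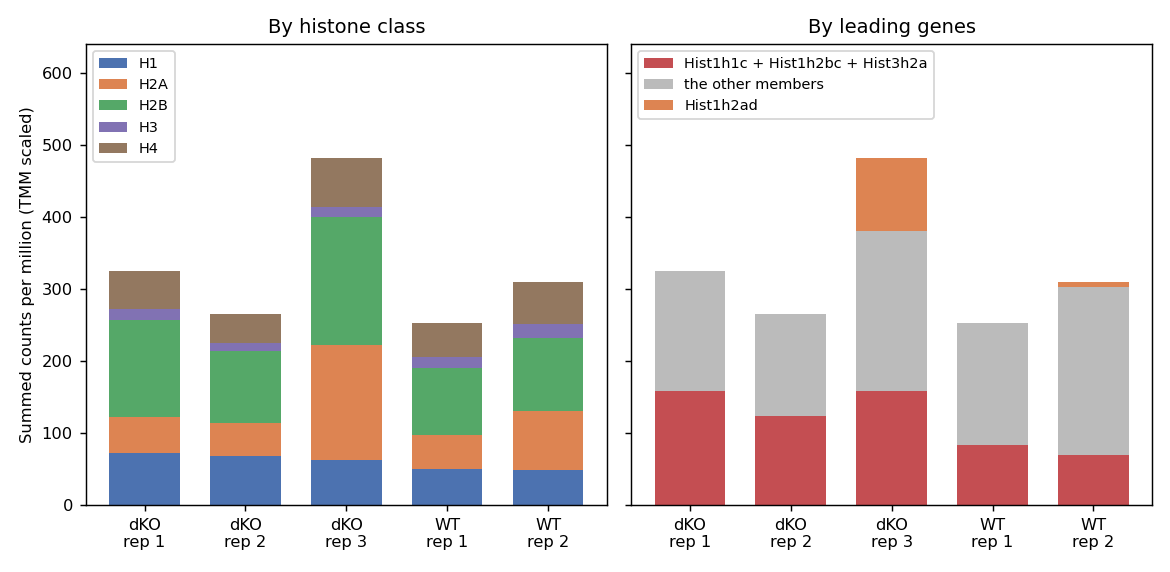
Summed TMM-scaled CPM of the histone genes in each dKO and WT library, stacked by histone class (left panel) and by leading genes (right panel). The red segment is 124 to 159 CPM in dKO and 70.5 to 83.6 CPM in WT, and Hist1h2ad forms a large segment in dKO replicate 3 only.

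The genes of S phase, in which histone genes are usually transcribed, mostly had lower values in dKO. Of 31 tested S phase genes 29 had a log2 fold change below 0, with a median of -0.70, and 0 passed edgeR's adjusted test (16 lower and 1 higher at an unadjusted p under 0.05, against 5.19% and 4.94% of all genes). Their summed level was 4545, 5293 and 4559 CPM in dKO against 7433 and 7607 CPM in WT, without overlap. The polymerase clamp Pcna had 264, 307 and 299 CPM in dKO against 516 and 466 CPM in WT (log2 fold change -0.76, edgeR adjusted p = 0.430). The replicative helicase subunit Mcm4 was at -0.77, and its partners Gins2 and Cdc45 were at -1.07 and -1.59 (edgeR adjusted p = 0.430 each). In TPM the groups overlapped for Gins2, at 44.2, 50.2 and 33.2 TPM in dKO against 50.1 and 37.4 TPM in WT. For Pcna, Mcm4 and Cdc45 they did not overlap in TPM. Histone members over the same libraries had a median of -0.04, and the difference between the lists was not tested. S phase genes had a median coefficient of variation of 25.9%, against 102% for histone members, but the lists were not matched for level. Of the marker sums given above, that of stem cells was higher in every dKO library. That of granulocyte progenitors was 6466 CPM in WT replicate 1 and 42254 CPM in WT replicate 2, on either side of the dKO values. The part of these sums was not tested.

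Genes for proteins that carry histones came next. Of 28 histone chaperone genes 19 had a log2 fold change below 0 (median -0.22), 0 passed the adjusted test, and 7 (25.0%) were lower and 2 (7.14%) higher at an unadjusted p under 0.05, beside 5.19% and 4.94% of all genes. Hat1, which acetylates newly made H4, had 126, 113 and 112 CPM in dKO against 239 and 237 CPM in WT, a log2 fold change of -1.03 (edgeR adjusted p = 0.374). Nasp, a chaperone of H3 and H4, and Nap1l1, a chaperone of H2A and H2B, were at -0.96 and -0.73 (edgeR adjusted p = 0.430 each). Spty2d1, a histone chaperone gene, had the opposite sign, at 84.7, 99.2 and 70.6 CPM in dKO against 39.1 and 40.2 CPM in WT (log2 fold change 1.10, edgeR adjusted p = 0.430). For these 4 genes, picked for their small p, the dKO and WT libraries did not overlap. The same held for 15 of all 28 chaperone genes (53.6%) and for 29.4% of all tested genes.

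Factors that act on histone mRNA gave 11 of 17 log2 fold changes below 0 (median -0.38), with 0 passing the adjusted test and 2 (11.8%) lower at an unadjusted p under 0.05, beside 5.19% of all genes. The stem-loop binding protein gene Slbp had 257, 255 and 368 CPM in dKO against 432 and 380 CPM in WT (log2 fold change -0.47, edgeR adjusted p = 0.526). On the log2(TPM + 1) scale its difference was 0.0036. Cpsf3, the endonuclease that cuts histone precursor mRNA, Eri1, an exonuclease that trims the stem-loop end, and Ncbp2, a cap-binding subunit, were at -0.58, -0.54 and -0.63 (edgeR adjusted p = 0.436, 0.466 and 0.514).

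Histone variant genes, most of which are made throughout the cell cycle from polyadenylated mRNA, lay on both sides, with 6 of 11 above 0 and 5 below (median 0.03). The H2A.Z gene H2afz, the best supported of them, had 1001, 1199 and 1372 CPM in dKO against 1643 and 2042 CPM in WT (log2 fold change -0.63, edgeR adjusted p = 0.436). H2afy2, a macroH2A gene, had 4.02, 0 and 0.19 CPM in dKO against 18.1 and 13.1 CPM in WT (log2 fold change -3.46, edgeR adjusted p = 0.527), and without dKO replicate 1 its log2 fold change was -7.18. The H3.3 gene H3f3a was at 0.17 and H2afj at -0.34.

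**Figure D4:**
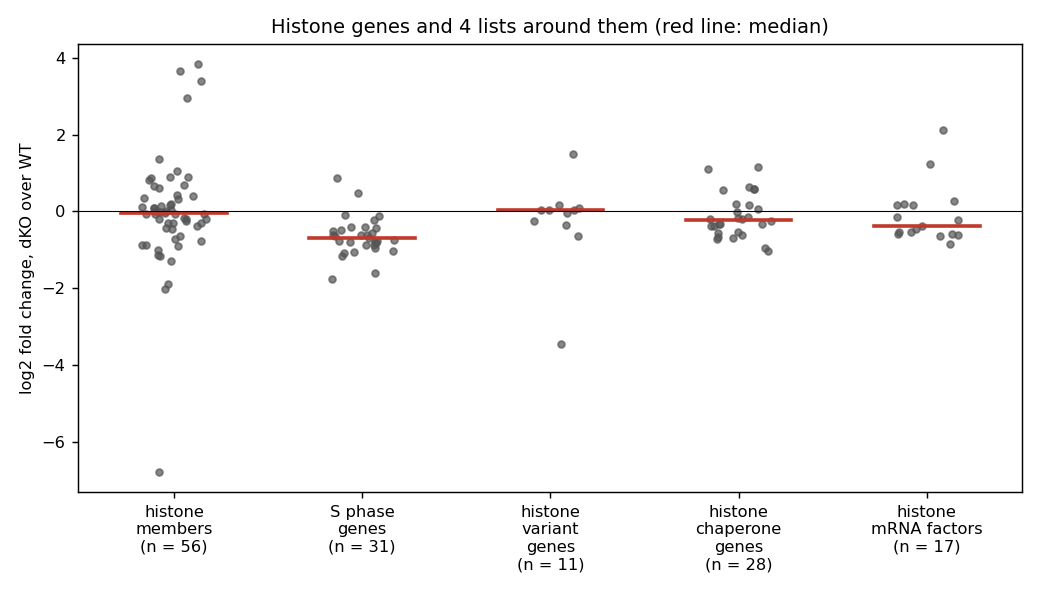
Log2 fold change (dKO over WT, edgeR) of each tested gene, by list, for the histone genes and 4 lists around them; red lines are medians. Histone genes spread from -6.79 to 3.83 around a median of -0.04, while S phase genes cluster around -0.70.

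Of the 14 members that were not tested, Hist1h2ap held the most counts, 243 summed over the libraries, with 235 of them in WT replicate 2. Some tested members held fewer. Among the untested members 4 had 0 counts in all 5 libraries. Of these 4, Hist1h4b, Hist2h2aa1 and Hist2h2ab nevertheless had TPM above 0 in 3, 3 and 4 libraries, up to 3.97 TPM, so the deposited counts and TPM differ for them. Near-identical sequences were common: 20 of the 70 members matched a transcript of another M21 gene at over 99% identity. Among them were 7 of the 14 untested members. Genes that overlap the member itself, on either strand, were not left out, so these are not all separate copies. The match of Hist3h2a, for example, was Trim17, which M21 places over it. The counts of such genes given above carry the same limit.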

How the data were processed

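Bulk RNA was sequenced from 3 dKO and 2 WT libraries of 6K sorted cells each. The authors deposited a whole-number count for each gene and, in other files, TPM, transcript levels that the authors scaled for length and library size. The submitters' processing notes list TopHat2 2.1.1, HTSeq, RSEM 1.2.31, DESeq2, Trimmomatic and FastQC 0.11.5, with the build mm9, but do not say which tool made which values. The 30 entries per file that name no gene, 0.216% to 0.269% of counts, were left out.

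The test was that of edgeR 4.0.16 under R 4.3.3 (filterByExpr, TMM, robust quasi-likelihood, all 5 libraries, Benjamini-Hochberg adjustment over 13696 genes, threshold 0.05). CPM values are TMM-scaled. Levels of different genes were compared in TPM. Alternatives were DESeq2 1.42.0, limma-voom (limma 3.58.1), other scalings and filters, limma on log2(TPM + 1) or log2(TPM + 0.1), a block for replicate number, and leaving out each library in turn. The fits were checked on simulated counts.

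Members were matched to GENCODE M21 transcripts, 58 by identifier and 12 by symbol, for sequence features, since the files' build was not at hand. Promoters are RefSeq's, of GRCm38.p6. Members named are the 15 with the highest mean TPM, those with an unadjusted p under 0.05 and those whose groups do not overlap, with 4 genes of smallest p from each of the 4 lists; other genes named were chosen after their values were seen. Members and lists were chosen with earlier results of these data known. Symbol-based membership includes pseudogenes. The value of 1 marker gene is not reported here.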

Additional observations from a re-analysis of the deposited data

How the results depend on the processing

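Each gene named was refitted under up to 14 alternatives, giving 576 values for 42 genes. Of these, 528 kept their direction and their side of the 0.05 threshold, 8 passed it (all under DESeq2: Hist1h2al, Pcna, Mcm4, Cdc45, Gins2, Hat1, Nap1l1 and Spty2d1) and 40 changed sign. For 28 genes, Hist1h1c, Hist1h2bc and Hist3h2a among them, no alternative changed the sign.

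Under DESeq2, 254 of all genes, 1 histone member, 6 S phase genes and 3 chaperone genes were called, against 0 of each with edgeR; 8 genes were called without the filter on low counts. Leaving out a library gave 0 to 5 called genes, 0 histone members in each case, and a median member log2 fold change of -0.29 to 0.31. With the replicate number as a block, 1 gene and 0 histone members were called and the median was -0.51. Same-numbered libraries correlated at 0.03 and 0.05 in their deviations from group means, over only 2 pairs, so the numbers were not taken as pairing.

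Under the block the log2 fold changes were 0.22 for Hist1h1e, -3.83 for Hist1h2ad, -0.19 for Hist1h2ae, -0.044 for Hist1h2bg, -0.44 for Hist1h2bm, -0.17 for Hist1h4n and -0.40 for Lrp5. Limma-voom gave -0.24 for Hist1h2ad, -0.11 for Hist1h2ae, -0.35 for Hist1h2bm, 0.027 for Hist1h4i and -0.042 for Hist4h4. Limma on log2(TPM + 1) gave 0.18 for Hist1h1e, 0.091 for Hist1h4i and 0.0036 for Slbp. With a pseudocount of 0.1 it gave 0.19 for Hist1h1e, -0.66 for Hist1h2ad, 0.091 for Hist1h4i and 0.0036 for Slbp. The filter of 5 CPM gave 0.016 for Hist1h1e. Ranges with each library left out were -0.18 to 0.22 for Hist1h1e, -4.98 to 6.33 for Hist1h2ad, -0.19 to 0.28 for Hist1h2ae, -0.24 to 0.32 for Hist1h2bg, -1.03 to 0.25 for Hist1h2bj, -0.082 to 0.87 for Hist1h2bm, -0.38 to 0.27 for Hist1h4c, -0.78 to 0.19 for Hist1h4d, -0.26 to 0.15 for Hist1h4i, -0.45 to 0.92 for Hist1h4n, -0.23 to 0.72 for Hist4h4, -0.045 to 2.34 for Lrp5 and -0.042 to 1.39 for Lrp6. The cause of these changes was not tested.

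With 3 dKO and 2 WT libraries and a median coefficient of variation of 102% between libraries for histone members, a change of less than several-fold in most single members was not detectable.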
